A study of Chlamydomonas reinhardtii with 8 samples.

Results

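The 5 photoprotection genes described here are LHCSR1 (Cre08.g365900_4532.v6.1), LHCSR3.1 (Cre08.g367500_4532.v6.1), LHCSR3.2 (Cre08.g367400_4532.v6.1), PSBS1 (Cre01.g016600_4532.v6.1) and PSBS2 (Cre01.g016750_4532.v6.1) of Chlamydomonas reinhardtii, a single-celled green alga, taken by locus from the 17693 genes of the count table. All were sparsely read. LHCSR1 stood out in 1 of the 4 groups, wild type (WT) of mating type mt-, where it was higher than in every other library of the series. The LHCSR3 copies, alone or summed, were called in none of the 5 comparisons as reported, while LHCSR3.1 took from 23.5% to 75.0% of their counts in a library. The PSBS genes had at most 8 counts in any library and were too thinly read to test.

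When light exceeds what photosynthesis can use, green algae and plants release part of the energy absorbed by photosystem II as heat, a process called energy-dependent quenching. In Chlamydomonas the main effectors are the LHCSR proteins, relatives of the light-harvesting antenna that bind pigment and sense the acidity of the thylakoid lumen. LHCSR3, encoded by the neighbouring near-identical genes LHCSR3.1 and LHCSR3.2, is known to be induced by strong light and by low CO2, and LHCSR1 by ultraviolet B and strong light. PSBS, the quenching effector of land plants, is made in Chlamydomonas for a short time after a shift to strong light.

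RNA-seq was made from vegetative cells in acetate-containing TAP medium under continuous light of 50 to 100 µE per square metre per second at 22 to 25 °C. The 8 libraries formed 4 groups of 2 samples that the titles call biological replicates: WT mt+, dnmt1 mt+, WT mt- and dnmt1 mt-. The mt+ groups were CC-5155 strains and the mt- groups CC-5325 strains, and strain therefore cannot be told apart from mating type. The dnmt1 groups are labelled as knockouts of DNMT1, a DNA cytosine methyltransferase; how many clones stand behind each is not given in the sources used here.

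Library totals ran from 12204374 to 21115955 counts, and 15263 genes had enough counts to be tested. The locus taken for DNMT1, DMT1 (Cre10.g461750), read 28.2 and 28.3 CPM (counts scaled to a depth of 1 M by library total and TMM factor) in WT mt+, 16.0 and 13.2 CPM in dnmt1 mt+, 28.7 and 24.5 CPM in WT mt-, and 84.0 and 91.0 CPM in dnmt1 mt-. The dnmt1 mt- pair was above WT, where a knockout would be looked for below it, and such counts say nothing of the protein. The text therefore speaks of libraries labelled dnmt1. Across tested genes, the replicates of WT mt+ were least alike (SD of log2 differences 0.47, against 0.32 to 0.34 for other pairs). Changes were called in edgeR's quasi-likelihood test where the p adjusted by Benjamini-Hochberg (BH) over all tested genes was under 0.05, and each ± after a log2 fold change is the standard error from that test.

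The 5 genes together took 458 of 127579309 counts. Over the 8 libraries LHCSR1 had 261 counts, LHCSR3.1 had 92, LHCSR3.2 had 67, PSBS1 had 24 and PSBS2 had 14, where the median tested gene had 1707. LHCSR1 and both LHCSR3 genes passed the low-count filter, which asked for about 0.639 CPM in at least 2 libraries. LHCSR3.2 met that level in 3 libraries, 1 of WT mt+ and both labelled dnmt1 mt-, LHCSR3.1 in 5 and LHCSR1 in 7, while neither PSBS gene met it in any library. Of the 40 values of these genes 5 were 0, and of the 35 above 0 only 4 were odd numbers, as happens when the 2 mates of a read pair each add 1. Over all genes, from 25.5% to 30.8% of low counts (at least 2) were odd in a library, so even counts also prevailed beyond these genes. Each count may then stand for fewer sequenced fragments.

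**Figure D1:**
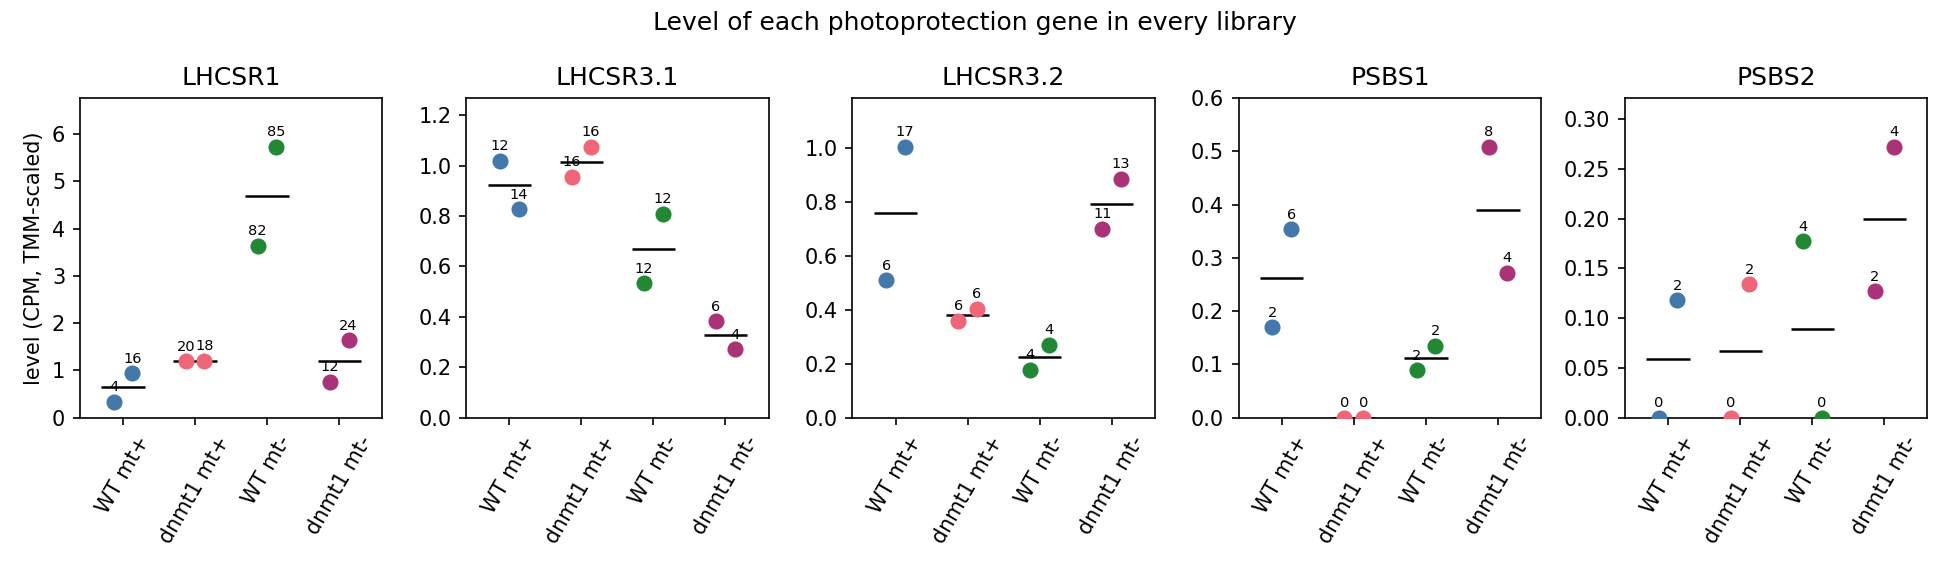
Level of each gene in CPM (vertical axis, from 0, with its own scale in each panel) in every library of the 4 groups; points are libraries with their raw count above them, and bars are group means. LHCSR1 is highest in the WT mt- libraries, with 82 and 85 counts, and PSBS1 has 0 counts in both libraries labelled dnmt1 mt+.

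LHCSR1 was highest in WT mt-. It read 3.64 and 5.73 CPM in WT mt- (82 and 85 counts), 1.2 and 1.21 CPM in libraries labelled dnmt1 mt+ (20 and 18 counts), 0.763 and 1.63 CPM in those labelled dnmt1 mt- (12 and 24 counts), and 0.340 and 0.944 CPM in WT mt+ (4 and 16 counts). The lower WT mt- library was 2.23-fold above the highest library of the other groups, so WT mt- did not overlap with any of them. The order of the group means was 4.68 ± 1.48 CPM in WT mt-, 1.2 ± 0.00932 in dnmt1 mt+, 1.2 ± 0.616 in dnmt1 mt- and 0.642 ± 0.427 CPM in WT mt+ (SD, n = 2 each). The libraries of dnmt1 mt- overlapped with those of both neighbours in that order, dnmt1 mt+ and WT mt+. Counting error alone put the pooled WT mt- level between 3.82 and 5.20 CPM (exact Poisson, 95%), or between 3.58 and 5.56 CPM if each pair of mates was counted as 2.

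In mt-, LHCSR1 fell by 1.95 ± 0.42 on the log2 scale from WT to the libraries labelled dnmt1 (edgeR, BH-adjusted p = 0.00373), and the WT mean was 3.91-fold the other. In mt+ the log2 fold change was 0.81 ± 0.55, with a 95% interval of -0.36 to 1.97 (edgeR, BH-adjusted p = 0.349). It was 0.35 without WT mt+ replicate 1 and 1.80 without WT mt+ replicate 2, with no call. The dnmt1 and WT libraries of mt+ did not overlap, but the WT mt+ pair itself spread from 0.340 to 0.944 CPM. The difference of these effects, mt+ minus mt-, was 2.76 ± 0.69 on the log2 scale (edgeR, BH-adjusted p = 0.0150). Between the mating types, LHCSR1 was lower in WT mt+ than in WT mt-, at -2.74 ± 0.47 on the log2 scale (edgeR, BH-adjusted p = 0.000827), and the WT mt- mean was 7.3-fold that of WT mt+. Among the libraries labelled dnmt1, mt+ against mt- gave 0.02 ± 0.49, with a 95% interval of -1.04 to 1.07. The called comparisons share the WT mt- libraries, so they are not separate results.

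These calls rested on few libraries. In mt- the call was lost without WT mt- replicate 2 (log2 fold change -1.61, edgeR, BH-adjusted p = 0.0603) and without dnmt1 mt- replicate 1 (-1.51, edgeR, BH-adjusted p = 0.0703), and the value was -2.59 without dnmt1 mt- replicate 2. The difference between the mating types was no longer called without either library of dnmt1 mt+, without WT mt- replicate 2 or without dnmt1 mt- replicate 1 (2.33 to 2.80, edgeR, BH-adjusted p from 0.0604 to 0.0766). The contrast of WT mt+ with WT mt- was called without any 1 of the 8 libraries, at -2.28 without WT mt+ replicate 1 and -3.73 without WT mt+ replicate 2.

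**Figure D2:**
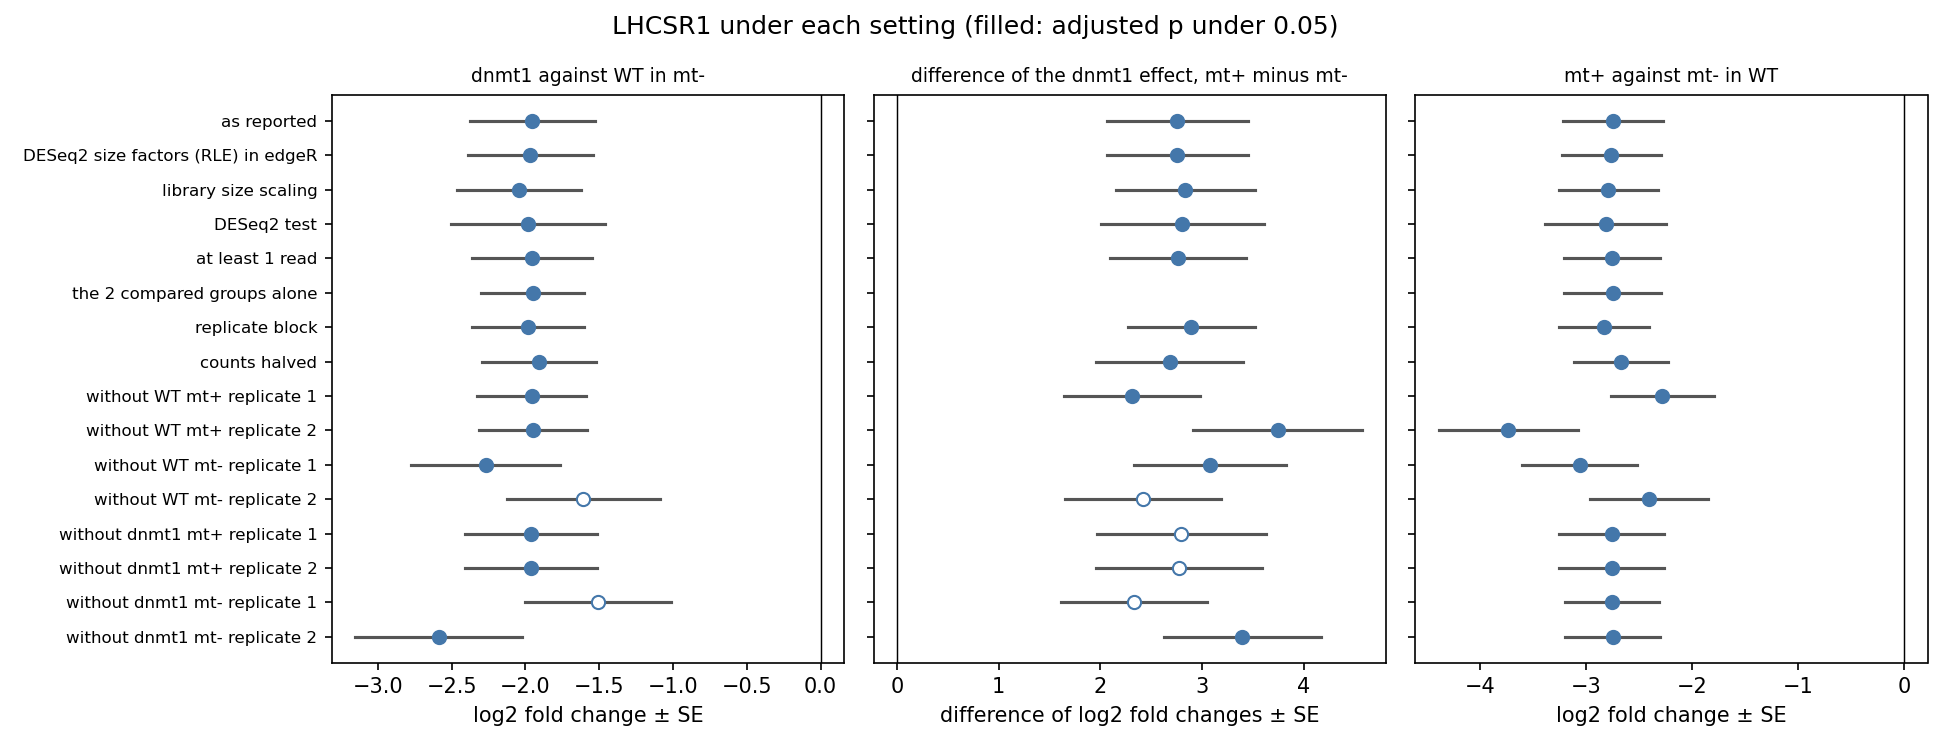
LHCSR1 log2 fold change, or difference of log2 fold changes, ± standard error (horizontal axes) as reported and under each alternative setting or left-out library (rows), for the 3 comparisons in which it was called. Filled points have an adjusted p under 0.05; every value keeps its sign, and open points appear in the first 2 panels without single libraries.

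The LHCSR3 genes encode the main quencher of strong-light-grown Chlamydomonas. No gene lies between them in the v5.5 order of RefSeq loci, and reads from near-identical copies may be divided between them by alignment and counting, so the level of each copy is uncertain. LHCSR3.1 read 1.02 and 0.826 CPM in WT mt+, 0.956 and 1.07 CPM in libraries labelled dnmt1 mt+, 0.532 and 0.809 CPM in WT mt-, and 0.381 and 0.272 CPM in those labelled dnmt1 mt-. The dnmt1 mt- pair, with 6 and 4 counts, was below the 6 other libraries, which had 12 to 16 counts. Its group means ran from 1.01 ± 0.0834 CPM in dnmt1 mt+ through 0.923 ± 0.137 in WT mt+ and 0.671 ± 0.196 in WT mt- to 0.327 ± 0.0771 CPM in dnmt1 mt- (SD, n = 2 each), and the libraries of the first pair of groups overlapped. LHCSR3.2 read 0.510 and 1.00 CPM in WT mt+, 0.359 and 0.403 CPM in dnmt1 mt+, 0.177 and 0.270 CPM in WT mt-, and 0.699 and 0.885 CPM in dnmt1 mt-. Here the WT mt- pair, with 4 counts each, was lowest, and WT mt+ replicate 2, with 17 counts, was highest. Its group means ran from 0.792 CPM in dnmt1 mt- through 0.756 ± 0.349 in WT mt+ and 0.381 ± 0.0313 in dnmt1 mt+ to 0.224 ± 0.0652 CPM in WT mt- (SD, n = 2 each), with overlap between the first pair of groups alone.

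Neither copy was called in any of the 5 comparisons. In mt-, LHCSR3.1 had a log2 fold change of -0.97 ± 0.62 for dnmt1 against WT (95% interval -2.29 to 0.34), and LHCSR3.2 one of 1.84 ± 0.68 (95% interval 0.40 to 3.27; edgeR, BH-adjusted p = 0.0609). In mt+ the values were 0.15 ± 0.50 for LHCSR3.1 (95% interval -0.92 to 1.22) and -1.03 ± 0.63 for LHCSR3.2 (95% interval -2.38 to 0.32). The difference of the effects for LHCSR3.2, mt+ minus mt-, was -2.87 ± 0.93 (edgeR, BH-adjusted p = 0.0515), and for LHCSR3.1 it was 1.12 ± 0.80 (edgeR, BH-adjusted p = 0.396). LHCSR3.2 would not have passed the low-count filter without the libraries labelled dnmt1 mt-, where it was high, and each of its tests rests on that. Without WT mt+ replicate 1 it was called for the difference (-3.21, edgeR, BH-adjusted p = 0.0286) and for WT mt+ against WT mt- (2.18, edgeR, BH-adjusted p = 0.0448). As reported, the last contrast was 1.83 ± 0.68 (edgeR, BH-adjusted p = 0.0674). For dnmt1 mt+ against dnmt1 mt-, LHCSR3.1 had a log2 fold change of 1.6 ± 0.59 without a call (edgeR, BH-adjusted p = 0.0644).

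Summed over both copies, LHCSR3 had 18 and 31 counts in WT mt+, 22 in each library labelled dnmt1 mt+, 16 in each of WT mt-, and 17 in each labelled dnmt1 mt-. The summed level was 1.53 and 1.83 CPM in WT mt+, 1.32 and 1.48 CPM in dnmt1 mt+, 0.710 and 1.08 CPM in WT mt-, and 1.08 and 1.16 CPM in dnmt1 mt-. In a fit with the copies summed, dnmt1 against WT gave 0.36 ± 0.45 in mt- (95% interval -0.60 to 1.32) and -0.28 ± 0.41 in mt+ (95% interval -1.16 to 0.60), with no call. WT mt+ against WT mt- gave 0.95 ± 0.43 (edgeR, BH-adjusted p = 0.129), and the WT pairs did not overlap.

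The share of LHCSR3 counts assigned to LHCSR3.1 was 66.7% and 45.2% in WT mt+, 72.7% in each library labelled dnmt1 mt+, 75.0% in each of WT mt-, and 35.3% and 23.5% in those labelled dnmt1 mt-. The dnmt1 mt- pair had the lowest shares, below both WT mt- libraries. Pooled over 2 libraries, the share was 29.4% in dnmt1 mt- (10 of 34 counts, exact binomial 95% interval 15.1% to 47.5%) and 75.0% in WT mt- (24 of 32 counts, 56.6% to 88.5%). Those intervals did not overlap, but they assume independent reads. With each pair of mates counted as 1, they were 10.3% to 56.0% and 47.6% to 92.7%, and overlapped. All intervals here cover counting error alone.

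**Figure D3:**
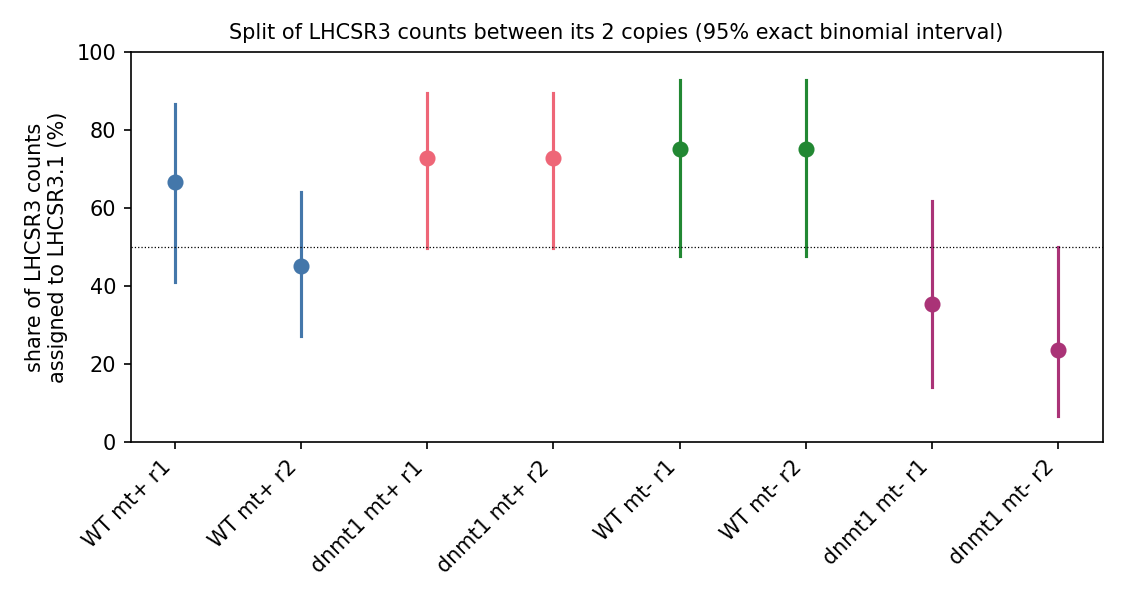
Share of LHCSR3 counts assigned to LHCSR3.1, in percent (vertical axis, 0 to 100), in each library (horizontal axis, r1 and r2 for the replicates), with the 95% exact binomial interval of its counts. The 2 libraries labelled dnmt1 mt- are lowest, at 35.3% and 23.5%, and those of WT mt- are both at 75.0%; the dotted line marks an even split.

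PSBS1 and PSBS2 are similar genes with 2 other loci between them in the v5.5 order, and their reads may also be divided by counting. PSBS1 had 2 and 6 counts in WT mt+, 0 in both libraries labelled dnmt1 mt+, 2 in each of WT mt-, and 8 and 4 in those labelled dnmt1 mt-. Its level in dnmt1 mt- was 0.509 and 0.272 CPM, which overlapped with WT mt+ at 0.170 and 0.354 CPM. Over both libraries labelled dnmt1 mt+, a count of 0 allowed up to 0.117 CPM (exact Poisson, 95%), or 0.233 CPM if each pair of mates was counted as 2. The interval in dnmt1 mt- was 0.204 to 0.689 CPM, or 0.145 to 0.859 CPM for pairs. The intervals were apart by the first reading and overlapped by the second. They cover counting error alone and leave out the spread between libraries. PSBS2 had 0 and 2 counts in each mt+ group, 4 and 0 counts in WT mt-, and 2 and 4 counts in dnmt1 mt-, so no library had more than 4. All 16 PSBS counts were even numbers.

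The PSBS genes were not tested as reported. In a fit of all genes with at least 1 read, neither was called in any comparison; the contrast nearest the threshold was PSBS1 in dnmt1 mt+ against dnmt1 mt- (edgeR, BH-adjusted p = 0.0556), followed by the difference of the dnmt1 effects (edgeR, BH-adjusted p = 0.0722). Their sum did not pass the low-count filter. It had 10 and 8 counts in dnmt1 mt-, 6 and 2 counts in WT mt-, 2 and 8 counts in WT mt+, and 0 and 2 counts in dnmt1 mt+.

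Across the tested members, 0 of 3 were called for dnmt1 against WT in mt+, where 18.1% of all 15263 tested genes were, and 1 of 3 in mt-, where 23.5% were. For the difference of the effects 1 of 3 was called against 13.8% of all genes, for WT mt+ against WT mt- 1 of 3 against 21.5%, and for dnmt1 mt+ against dnmt1 mt- 0 of 3 against 22.0%. Calls were rarer among thinly read genes. Among the 1458 tested genes whose mean level lay between those of LHCSR3.2 and LHCSR1, 0.538 to 1.93 CPM, 4.53% were called in mt+, 8.23% in mt-, 3.50% for the difference, 6.52% between the WT groups and 6.1% between the dnmt1 groups. With 3 genes, nothing is read from these shares. For the count of 0 in mt+, 4692 of all tested genes had an unadjusted p under 0.05 in edgeR and none of the members did; DESeq2 also called none. For the count of 0 between the dnmt1 groups, LHCSR3.1 had an unadjusted p of 0.0156 in edgeR, and DESeq2 called no member.

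**Figure D4:**
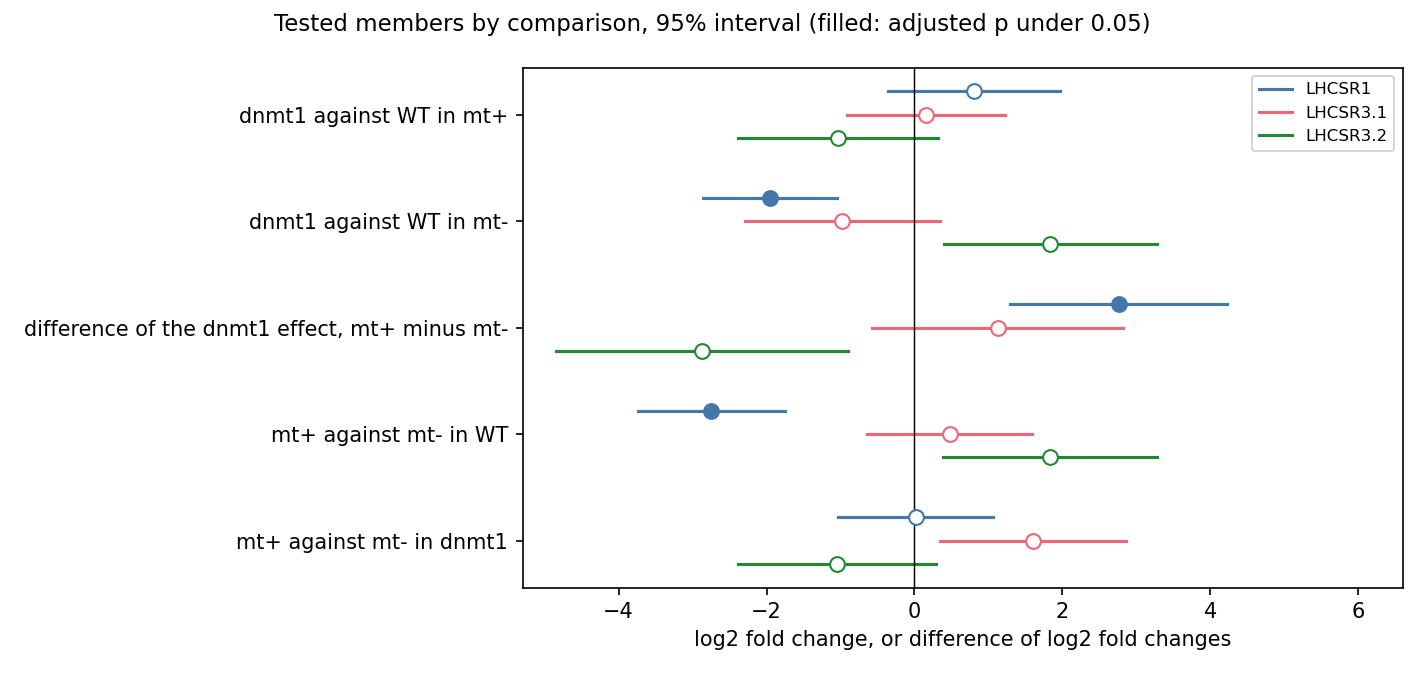
Log2 fold change, or difference of log2 fold changes, with its 95% interval (horizontal axis) for LHCSR1, LHCSR3.1 and LHCSR3.2 in the 5 comparisons. Filled points, with an adjusted p under 0.05, are those of LHCSR1 at -1.95, 2.76 and -2.74; LHCSR3.1 and LHCSR3.2 have no filled point.

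The other genes of the pathway came from lists of 36 loci, 35 of them tested. Their symbols are those of the standard Chlamydomonas nomenclature and are printed with the locus, since the tables used here hold loci alone. In mt+, 0 of the 35 rose and 9 fell in the libraries labelled dnmt1, where 18.1% of all tested genes were called in either direction, with a median log2 fold change of -0.09 against 0.00 over all genes. In mt-, 9 rose and 8 fell, where 23.5% of all tested genes were called, with a median of 0.07 against 0.01. Of these calls, 3 of 9 in mt+ and 8 of 17 in mt- were kept whichever single library was left out: CAH1, CAH4 and CAH5 in both, and APX1, FSD1, LCIA, LHCB5 and PGR5 in mt-. The share of all genes called in each direction was not counted. Nothing is therefore read from the direction of calls in these lists, whole or single.

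Among the 8 regulators, the blue-light receptor gene PHOT1 (Cre03.g199000), whose protein is needed for LHCSR3 induction, had log2 fold changes of -0.07 ± 0.08 in mt+ and -0.04 ± 0.08 in mt-. The values for SPA1 (Cre13.g602700), part of an E3 ligase that holds these genes down, were 0.00 ± 0.16 and 0.15 ± 0.15, and for the ultraviolet B receptor UVR8 (Cre05.g230600) 0.11 ± 0.11 and 0.12 ± 0.11. CAS (Cre12.g497300), a thylakoid calcium sensor, had -0.04 ± 0.13 and 0.05 ± 0.13. None of these 4 was called for dnmt1 against WT, although CAS was called higher in mt+ without WT mt+ replicate 1 (0.29). For mt+ against mt-, PHOT1 was called lower, at -0.25 in WT and -0.28 among the libraries labelled dnmt1. Of 8 runs with a library left out, 6 lost the WT call and 4 the other. CrCO (Cre06.g278159), a CONSTANS-type transcription factor that acts on LHCSR and PSBS genes, fell by 0.45 ± 0.14 in mt+ and by 0.41 ± 0.14 in mt- on the log2 scale. CIA5 (Cre02.g096300), the regulator of the low-CO2 response that LHCSR3 also depends on, fell by 0.42 ± 0.10 in mt+ and had -0.25 ± 0.10 in mt- without a call. The CIA5 call was lost without either library of dnmt1 mt+ (-0.42 and -0.39). Those of CrCO were lost in mt+ without any library other than WT mt+ replicate 2 (-0.50 to -0.11, and -0.72 without that one) and in mt- without any library other than those of WT mt+ (-0.50 to -0.34).

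In the xanthophyll cycle, which makes zeaxanthin in strong light, CVDE1 (Cre04.g221550), the violaxanthin de-epoxidase, had 0.20 ± 0.20 in mt+ and -0.41 ± 0.19 in mt-, and ZEP1 (Cre02.g082550), which reverses that step, -0.14 ± 0.13 and -0.33 ± 0.13, with no call. Of 4 genes of state transitions and cyclic electron flow, 2 fell in mt- and none was called in mt+. PGR5 (Cre05.g242400), for a cyclic electron flow protein, fell from 180 ± 10.2 CPM in WT mt- to 69.7 ± 3.87 CPM in the libraries labelled dnmt1 mt- (SD, n = 2), a log2 fold change of -1.37 ± 0.11 (edgeR, BH-adjusted p = 6.85e-07), and its partner PGRL1 (Cre07.g340200) fell by 0.40 ± 0.08. PGRL1 lost its call without WT mt- replicate 1 (-0.33). STT7 (Cre02.g120250), the kinase of state transitions, had 0.32 ± 0.16 in mt+ and -0.25 ± 0.16 in mt-.

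Of 5 antenna partners and stress-induced relatives, 1 fell in mt+, and 3 rose and 1 fell in mt-. The LHC-like gene LHL4 (Cre17.g740950), induced by strong light and ultraviolet B, was, like LHCSR1, highest in WT mt-. It read 3.1 CPM in each WT mt- library, 1.53 and 1.77 CPM in WT mt+, 1.32 and 0.671 CPM in dnmt1 mt+, and 1.02 and 1.09 CPM in dnmt1 mt-. It fell in mt- by 1.55 ± 0.38 on the log2 scale (edgeR, BH-adjusted p = 0.00834), a call lost without either library of dnmt1 mt- or without WT mt- replicate 1 (-1.60 to -1.52). LHL4 was not called between the WT groups. Of the pathway genes named above, PHOT1, CrCO, CIA5, ZEP1, PGR5 and PGRL1 also had their highest group mean in WT mt-. CAS, SPA1 and UVR8 had their lowest there, and STT7 and CVDE1 had neither. Nothing is read from this division. The minor antenna genes LHCB4 (Cre17.g720250) and LHCB5 (Cre16.g673650), and LHCBM1 (Cre01.g066917), an antenna protein that takes part in quenching, rose in mt- by 0.51 ± 0.11, 0.39 ± 0.08 and 0.27 ± 0.09. LHCB4 lost its call without the first replicate of WT mt- or of dnmt1 mt- (0.44 to 0.46), and LHCBM1 without any of 5 libraries, WT mt- replicate 1 and all 4 labelled dnmt1 (0.14 to 0.30), and under 4 other settings. ELI3 (Cre09.g394325), of the early light-induced family, fell in mt+ by 1.38 ± 0.29, a call lost without dnmt1 mt+ replicate 2 (-1.19). ELI3 had its highest group mean in WT mt+, at 6.42 CPM, with 4.81 CPM in WT mt-.

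**Figure D5:**
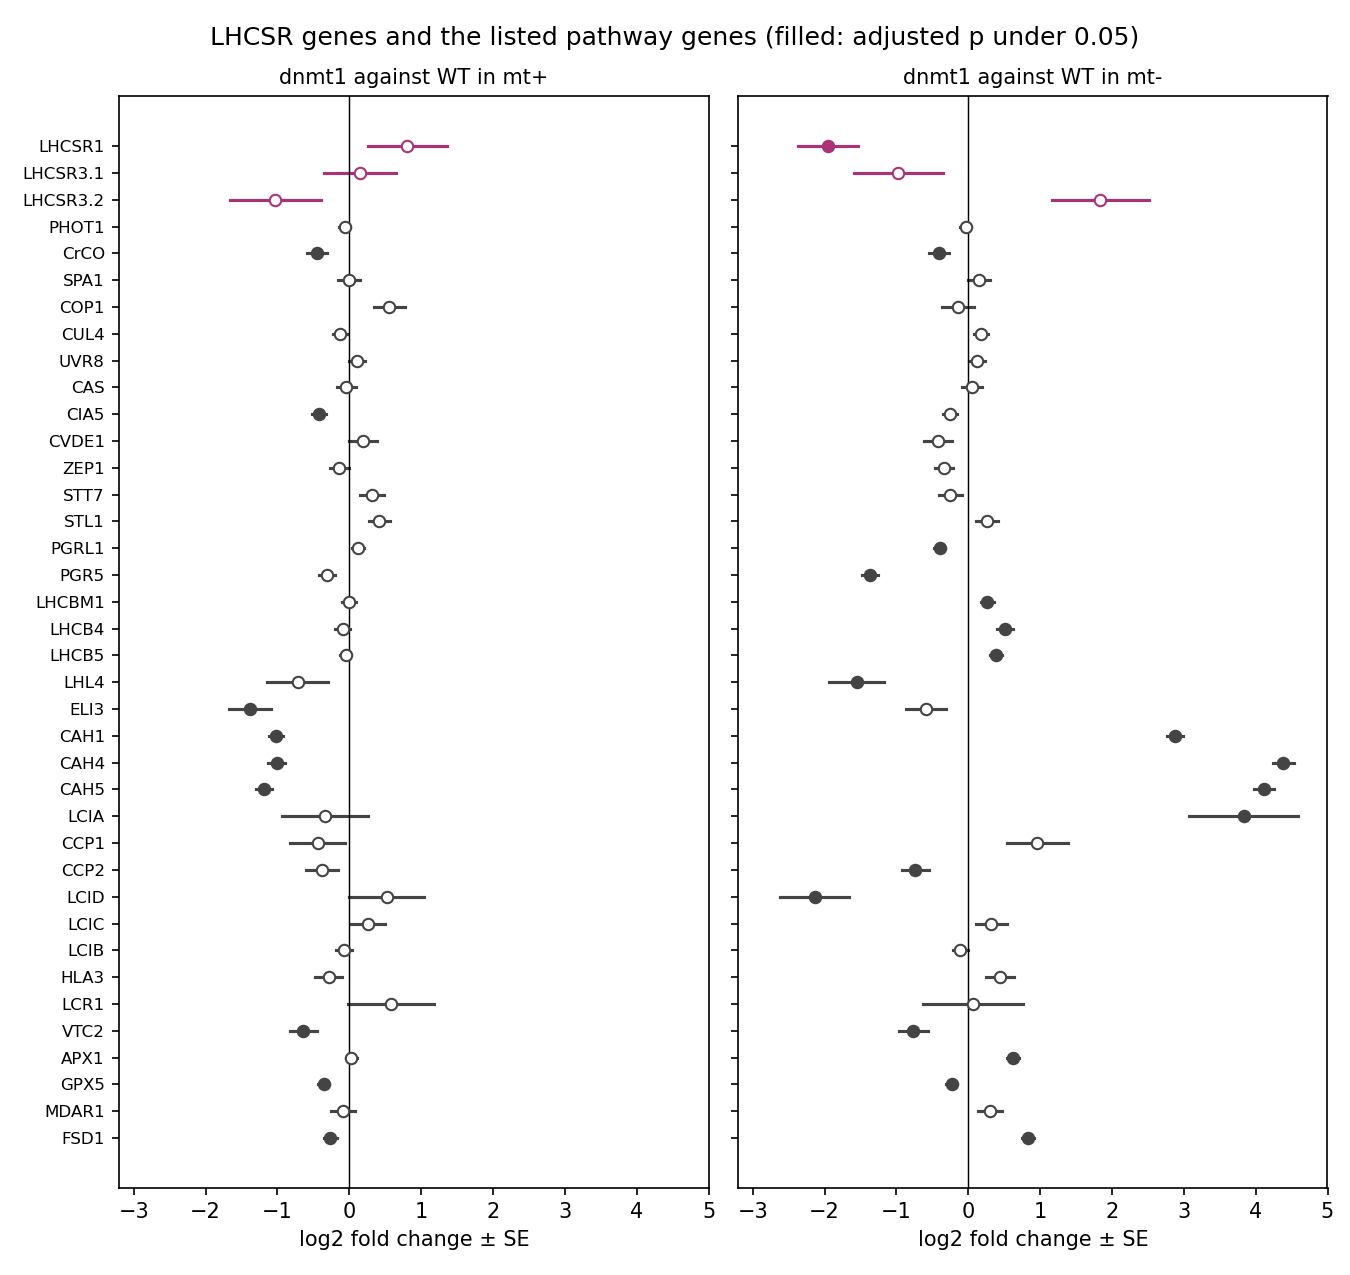
Log2 fold change ± standard error (horizontal axes) of the 3 tested LHCSR genes (top, purple) and the 35 tested pathway genes (rows) for dnmt1 against WT in mt+ (left) and in mt- (right). Filled points have an adjusted p under 0.05. Among the pathway genes, filled points in mt+ lie below 0 and those in mt- on both sides, from -2.14 for LCID to 4.39 for CAH4.

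Of 11 tested genes of the low-CO2 response, 0 rose and 3 fell in mt+, and 4 rose and 2 fell in mt-. Those called in opposite directions were the carbonic anhydrase genes CAH1 (Cre04.g223100), CAH4 (Cre05.g248400) and CAH5 (Cre05.g248450), with differences of the effects of -3.90 ± 0.14, -5.40 ± 0.19 and -5.31 ± 0.18. The group set apart in each was WT mt-, which was far below the rest. CAH1 averaged 21.8 CPM in WT mt-, 161 in dnmt1 mt-, 266 in WT mt+ and 131 in dnmt1 mt+. In the same order CAH4 averaged 25.9, 540, 525 and 260 CPM, and CAH5 11.6, 200, 204 and 89.2 CPM. CAH4 and CAH5 are near-identical copies. The members LHCSR3.1 and LHCSR3.2, which are induced with these genes by low CO2, had values of opposite sign to each other in both mating types with no call, and their sum had -0.28 ± 0.41 and 0.36 ± 0.45. LCID (Cre04.g222800), of the LCIB family, fell in mt- by 2.14 ± 0.48 on the log2 scale, a call lost without dnmt1 mt- replicate 1 (-1.95), and CCP2 (Cre04.g222750), for a carrier protein, fell by 0.74 ± 0.19, a call lost without either library of dnmt1 mt- or without WT mt- replicate 1 (-0.79 to -0.67). LCIA (Cre06.g309000), for a bicarbonate channel of the chloroplast envelope, rose in mt- by 3.83 ± 0.76 from 2 counts in each WT mt- library.

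Of 5 genes of the response to strong light and oxidants, 0 rose and 3 fell in mt+, and 2 rose and 2 fell in mt-. VTC2 (Cre13.g588150), an enzyme of ascorbate synthesis, fell by 0.64 ± 0.19 in mt+ and by 0.76 ± 0.20 in mt-, and the peroxidase gene GPX5 (Cre10.g458450) by 0.36 ± 0.08 and 0.23 ± 0.08. The iron superoxide dismutase gene FSD1 (Cre10.g436050) fell by 0.26 ± 0.09 in mt+ and rose by 0.83 ± 0.09 in mt-, and the ascorbate peroxidase gene APX1 (Cre02.g087700) rose in mt- by 0.62 ± 0.08. In mt+, VTC2 lost its call without WT mt+ replicate 2, dnmt1 mt+ replicate 1 or dnmt1 mt- replicate 1 (-0.62 to -0.38), GPX5 without either library of dnmt1 mt+ (-0.34), and FSD1 without any library other than WT mt+ replicate 2 (-0.27 to -0.16). In mt-, VTC2 lost its call without dnmt1 mt- replicate 2 or WT mt- replicate 1 (-0.65 and -0.64), and GPX5 without any library other than those of WT mt+ (-0.27 to -0.20).

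The gene whose pattern over the 8 libraries lay closest to LHCSR1, among 14456 genes averaging 1 CPM or more, was LCID (Cre04.g222800). Likeness was the root mean square difference of log2 CPM profiles, each centred on its own mean, and LCID differed from LHCSR1 by 0.45 on that scale, where LHCSR1 itself varied by 1.08. LCID read 2.57 and 2.7 CPM in WT mt- and 0.340 and 1.06 CPM in WT mt+. In the libraries labelled dnmt1 it read 1.2 and 0.940 CPM in mt+, and 0.509 and 0.681 CPM in mt-. Its peak in WT mt- follows from the choice by likeness to LHCSR1. Next were Cre07.g800869 (0.48) and Cre05.g245500 (0.52), which have no symbol here. Cre05.g245500 read 9.62 and 8.70 CPM in WT mt- and 1.27 to 2.03 CPM in the other 6 libraries.

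For LHCSR3.1 the closest was Cre02.g095099, at a root mean square difference of 0.16 where LHCSR3.1 varied by 0.55, with 8.96 and 8.04 CPM in dnmt1 mt- and 14.8 to 20.2 CPM elsewhere. Cre08.g384390 and Cre03.g800396 followed, both at 0.17. For LHCSR3.2, which varied by 0.62, the closest were Cre12.g542200 (0.27), Cre03.g154600 (0.28) and Cre17.g719500 (0.29). The members differed more than this among themselves. The genes named above were picked as the closest of all candidates, so nothing is read from that gap. LHCSR1 differed from LHCSR3.1 by 1.30 and from LHCSR3.2 by 1.53, and the LHCSR3 copies differed from each other by 0.96.

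The genes next to the members, 2 on each side in the v5.5 order and chosen after the members' values were seen, gave 13 tested loci. Of these, 3 were higher and 0 lower for dnmt1 against WT in mt+ (18.1% of all tested genes called), and 1 was higher and 2 lower in mt- (23.5%). For mt+ against mt-, 0 were higher and 3 lower in WT (21.5%), and 0 were higher and 2 lower in dnmt1 (22.0%). With 13 loci these counts are close to the shares of all genes. None of the 4 loci around LHCSR1 was called in mt- or between the WT groups, and 1, Cre08.g366000, was higher in mt+ (0.43 ± 0.12), a call lost without either library of dnmt1 mt+ and with the mt+ groups fitted alone (0.42). Its value was 0.72 without WT mt+ replicate 1 and 0.19 without WT mt+ replicate 2. Cre01.g016700, which lies between PSBS1 and PSBS2, was high in WT mt-. It read 11.4 and 10.5 CPM there, 2.54 and 1.5 CPM in libraries labelled dnmt1 mt-, 0.595 and 0.826 CPM in WT mt+, and 0.478 and 0.671 CPM in those labelled dnmt1 mt+. In mt- it was lower in the libraries labelled dnmt1 by a log2 fold change of -2.43 ± 0.28 (edgeR, BH-adjusted p = 2.53e-05), a call kept without any 1 of the 8 libraries. PSBS1 and PSBS2 on either side had 0 to 4 counts in each of the same WT mt- libraries.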

How the data were processed

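Per the submitters' processing notes, the tools included STAR 2.7.6, Trim Galore 2.6, featureCounts, Picard and DESeq2, whose roles are not stated; strand and pair settings are not given in the sources used here. The raw counts per gene deposited by the authors were the starting point, and their normalized signal, in which each library's deposited counts are divided by a size factor (0.749 to 1.42), served as a check alone. The loci are those of annotation v6.1, so no coordinates are printed; gene order comes from RefSeq's v5.5 table, which holds all 5 members.

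filterByExpr chose the genes, TMM scaled them, and edgeR 4.0.16 in R 4.3.3 fitted the counts (1 mean per group, 4 residual degrees of freedom, glmQLFTest, 2-sided). Standard errors restate the test statistic. The fit was tested on simulated data. Alternatives were DESeq2 1.42.0, its size factors, library size scaling, no low-count filter, a mean of at least 10 CPM, the 2 compared groups alone, a replicate block, halved counts, summed copies, and each library left out, where a lone library is assumed to vary like the others. Members and lists were chosen with earlier results of these data known. Named pathway genes are PHOT1, CrCO, SPA1, UVR8, CAS, CIA5, STT7, CVDE1, ZEP1 and up to 6 called per list; the 3 likest genes use log2 CPM with a prior count of 2. P-values set each difference against the spread between these samples, an estimate shared by the groups and drawn partly from other genes.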

Additional observations from a re-analysis of the deposited data

Results flagged for a closer look

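The effect of the dnmt1 label differed between the mating types, by the test of the difference itself (mt+ minus mt-, log2), for LHCSR1 at 2.76. Its log2 fold changes were 0.81 in mt+ (0.35 to 1.80 with 1 library left out) and -1.95 in mt-, and 4 of the 8 runs with a library left out did not call it (2.33 to 2.80). The same difference was called for PGR5 (1.05), PGRL1 (0.52), LHCB5 (-0.44), LHCB4 (-0.60), FSD1 (-1.10) and APX1 (-0.60), and for the low-CO2 genes CAH1 (-3.90), CAH5 (-5.31), CAH4 (-5.40), LCIA (-4.17) and LCID (2.65). The contrast has the WT mt- libraries in it, and WT mt- was the extreme group for each of these genes. LHCSR1, LCID, PGR5 and PGRL1 had their highest group mean there. CAH1, CAH4, CAH5, LCIA, FSD1, APX1, LHCB4 and LHCB5 had their lowest. Among these genes, the calls of LHCB4 and LHCB5 were lost without WT mt- replicate 1 or any library labelled dnmt1 (-0.64 to -0.53 and -0.43 to -0.38), and the LHCB4 value was -0.38 without WT mt+ replicate 1, that of LCID with 1 mt- library or 1 labelled dnmt1 mt+ left out, whichever it was (2.48 to 2.87), that of LCIA without the first replicate of either mt- group (-3.85 and -3.73), and that of PGRL1 in 2 runs, with WT mt- replicate 1 left out and with dnmt1 mt- replicate 2 left out (0.45 to 0.50).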

How the results depend on the processing

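The number of members called was 1 in mt-, and 2 with these groups fitted alone, where LHCSR3.2 was added, a gene that passed the low-count filter only with the dnmt1 mt- libraries. Leaving out 1 library gave 0 to 1 in mt-, 0 to 2 for the difference and 1 to 2 between the WT groups. A mean of at least 10 CPM left no member to test. Genes called were 2763 in mt+ (1555 with the groups alone), 3594 in mt- (5674), 2109 for the difference, 3280 between the WT groups (1777) and 3363 between the dnmt1 groups (5230); without 1 library they ran from 1305 to 4181, 1593 to 5682, 1088 to 4341, 1306 to 4869 and 1452 to 5320. Without WT mt+ replicate 1, values changed sign and were called for CAS in mt+ (0.29) and in the difference (0.24), and for CrCO in the difference (0.30), against -0.31, -0.36 and -0.32 without WT mt+ replicate 2; the cause was not tested. Replicate numbers are not stated to pair samples, and replicate differences correlated between groups at -0.05 to 0.15. With replicate number as a block, LHCSR1 in mt- was -1.98 and its difference 2.90, and the genes called were 3025 in mt+ and 3895 in mt-; the block changed no member's call, and with it PGR5 was called in mt+ (-0.31) and CrCO between the WT groups (-0.40). With 4 to 85 counts behind the tested members, depth limits every value.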
